A study of Ginkgo biloba with 15 samples.

Results

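The miR162 and miR168 families were followed in embryos of Ginkgo biloba, a gymnosperm tree, over 3 collection months. The members were all names in the deposited small-RNA count table that hold miR162 or miR168 with no further digit. There were 10 of them among 361 names, 6 of miR162 and 4 of miR168. Whole embryos were taken from healthy trees growing outdoors. The months were September and November of 2015 and February of 2016. Each month had 3 small-RNA libraries, numbered 1 to 3 in their titles, and the labels give no treatment and tell the groups apart by month alone. Nothing in the labels tells whether the 3 libraries of a month stand for different trees or seeds. The p-values thus reflect the scatter among libraries, part or all of which may be technical. The 9 libraries held 90008 to 1269029 counts under miRNA names. The embryo label was not checked against marker genes, because the deposited tables name none. In bulk samples of this kind, fewer cells of a type and less RNA per cell cannot be told apart.

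Plant miRNAs are cut from their precursors by DCL1, a Dicer-like nuclease, and then act within ARGONAUTE proteins, mainly AGO1. In Arabidopsis the transcript of DCL1 is a target of miR162, and that of AGO1 is a target of miR168. Each of the 2 miRNAs therefore acts back on the machinery that makes or carries it. miR403, known to target AGO2 in dicots, and miR838, which lies within the DCL1 gene of Arabidopsis, belong to the same circuit and have 0 names in this table. The Ginkgo transcripts of DCL1 and AGO1 were not analysed here, since the mRNA table does not name gene products.

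The libraries numbered 3 differed from those numbered 1 and 2 in every month. Of 132 distinct rows of counts with enough reads to test, 51 were highest in the library numbered 3 in all 3 months and 16 were lowest there in all 3 months. Results that rest on these libraries are therefore given with and without them. What the numbers mark is not stated in the labels.

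Each member name carries the prefix of the plant in which its sequence was catalogued, and a read may be listed under more than 1 name of a family. ath-miR168a-5p (Arabidopsis thaliana) and gma-miR168b (soybean) held the same count in all 9 libraries and were counted once. ath-miR162a-3p and zma-miR162-3p (maize) were almost the same, with 59338 and 59328 counts in all and no library differing by more than 3 counts. They were not identical, so the family sum over distinct rows holds both and may count the same reads under each. For that reason miR162 is also given with these 2 names counted once. The others were bdi-miR162 (Brachypodium distachyon) with 8415 counts, cln-miR162 (the conifer Cunninghamia lanceolata) with 246, pab-miR168b (the conifer Picea abies) with 148 and osa-miR162b (rice) with 48. bna-miR162a and bna-miR168b (Brassica napus) had 1 count each over all libraries. Levels are given in CPM, the count per 1000000 of the library's total over distinct rows. Where a name had 0 counts, up to 3 counts remain possible, or 2.37 to 33.6 CPM depending on the library. Of the 10 names, 7 reached at least 10 counts in at least 3 libraries and were tested, as 6 distinct rows. The 3 others were osa-miR162b and both names from Brassica napus.

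miR162, the family that targets DCL1 in Arabidopsis, was among the abundant families of these embryos. In September it took 4.22% (95% interval 4.16 to 4.27), 4.82% (4.73 to 4.91) and 1.64% (1.62 to 1.67) of the counts in libraries 1, 2 and 3. In November it took 2.61% (2.58 to 2.64), 3.70% (3.58 to 3.82) and 1.18% (1.16 to 1.21). In February it took 4.61% (4.55 to 4.67), 3.52% (3.46 to 3.58) and 0.905% (0.858 to 0.955). These are exact Clopper-Pearson intervals and cover counting error only. The months overlapped, and the lowest library of each month was the one numbered 3. The means were 3.56% ± 1.69 for September, 2.50% ± 1.26 for November and 3.01% ± 1.90 for February (SD, n = 3 each). Among the 65 families of the table, miR162 ranked 3 to 9 by counts. That rank and the shares above hold both ath-miR162a-3p and zma-miR162-3p, which may count the same reads. The share was also taken with names that differ by at most 1% counted once in every family, which lowered the library totals as well. On that basis miR162 took 0.851% to 3.72%. Its means were 2.33% ± 0.927 for September, 1.71% ± 0.690 for November and 2.44% ± 1.46 for February (SD, n = 3 each). These shares therefore do not show the effect of counting ath-miR162a-3p and zma-miR162-3p once by itself.

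miR168, the family that targets AGO1 in Arabidopsis, was rare. September libraries 1, 2 and 3 held 55, 18 and 63 counts, which is 116 (95% interval 87.4 to 151), 81.9 (48.6 to 129) and 88.9 (68.3 to 114) CPM. November libraries held 154, 12 and 149 counts, which is 122 (103 to 143), 134 (69.4 to 234) and 156 (132 to 183) CPM. February libraries held 50, 24 and 14 counts, which is 100.4 (74.5 to 132), 64.1 (41.1 to 95.4) and 94.6 (51.7 to 159) CPM. Every November library was above every September and every February library. miR168 was the only family of 34 tested with that pattern, a background of 2.94%. Taken apart, 2.94% of families had every November library above every September library, which was miR168 alone. Every February library lay below every November library in 11.8% of families, miR168 included. The counting intervals of November 1 and November 2 overlapped those of all 3 September libraries, and that of November 3 overlapped September 1. The interval of November 2 also overlapped those of all 3 February libraries, and those of November 1 and November 3 overlapped February 1 and February 3. The pattern was noticed in the values and depended on the scaling. With TMM factors, which correct the library totals for composition, libraries 1, 2 and 3 stood at 154, 62.1 and 103 CPM in September, at 165, 84.9 and 181 CPM in November and at 121, 70.7 and 61.1 CPM in February. On that scale the months overlapped. miR168 ranked 18 to 28 of 65 families. Over all 9 libraries its highest library was 2.43 times its lowest in CPM, against 5.33 times for miR162. That contrast rested on the libraries numbered 3. In those numbered 1 and 2, miR162 ran from 26119 to 48206 CPM and miR168 from 64.1 to 134 CPM, so miR168 did not vary less in fold there.

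**Figure D1:**
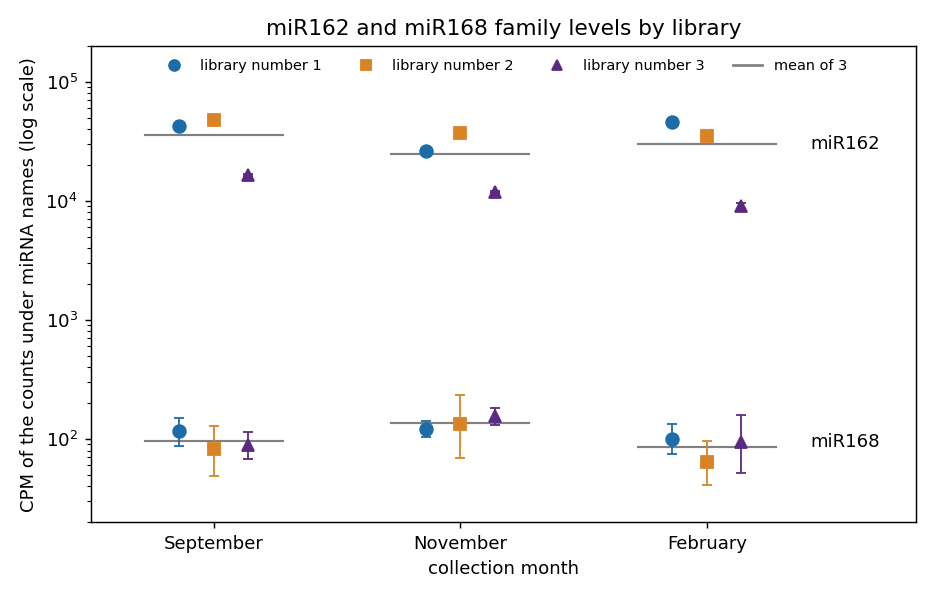
Levels of the miR162 and miR168 families in CPM on a log axis, by collection month, with 1 point per library and a marker for each library number. Bars are 95% exact counting intervals and grey lines are means of 3 libraries. miR162 lies at 9051 to 48206 CPM, lowest in the library numbered 3 of each month, and miR168 lies at 64.1 to 156 CPM.

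miR162 exceeded miR168 in 9 of 9 libraries. In September there were 360, 572 and 184 miR162 counts for each miR168 count in libraries 1, 2 and 3. In November there were 214, 265 and 75.7, and in February 455, 538 and 92.4. The lowest value of each month again belonged to the library numbered 3. The mean log2 ratio of miR168 to miR162 was −7.96 ± 1.06 (SD, n = 9). An exact two-sided sign-flip permutation test over the 9 libraries gave p = 0.00391, the smallest value that 9 libraries allow (0.0117 adjusted over the 3 ratios so tested). Without the libraries numbered 3 the mean was −8.56 (n = 6, exact p = 0.0313, again the smallest possible). With every library on the same side, both tests could only return their smallest value. They take the libraries as independent, although same-numbered libraries deviated together, and do not allow for that. The geometric mean was a 249-fold excess of miR162. It became 138-fold, with a range of 47.0 to 294, when ath-miR162a-3p and zma-miR162-3p were counted once. The counts were not scaled by length, mature miRNAs being of similar length, and how well each sequence was captured in library preparation was not tested.

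In TMM-scaled counts, neither family passed the test for a change between months. edgeR's quasi-likelihood test called neither in any comparison, with Benjamini-Hochberg adjustment over the 34 families tested. On library totals alone, the miR168 levels of November did not overlap those of the other months, as given above, and the edgeR test with that scaling did not call the family either. The share of all families called was 0% for November against September, with 0 families at an unadjusted p under 0.05. It was 2.94% for February against November and 2.94% for February against September, which was miR319 in both. With the library number as a block the share for February against September was 8.82%, and neither miR162 nor miR168 was among those called.

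For miR162 the log2 fold change of November over September was −0.62 (95% interval −2.38 to 1.13, edgeR adjusted p = 0.90). That of February over November was 0.46 (−1.29 to 2.21, edgeR adjusted p = 0.76). That of February over September was −0.16 (−1.91 to 1.59, edgeR adjusted p = 0.87). It was 0.060 with near-identical names counted once in every family, which also changed the library totals and TMM factors. The intervals are wide. For February over September they run from 0.267 to 3.01 in fold, so that a true change within that range could not be told from none with these libraries.

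Same-numbered libraries deviated together, so the families were also set side by side within numbers, as differences in log2 TMM-scaled CPM. For miR162 the November library was lower than the September one in 3 of 3 numbers (differences of −0.66, −0.64 and −0.48). February over November gave 0.64, 0.73 and −1.23, and February over September −0.016, 0.087 and −1.71, with the largest of these differences in number 3. For miR168 the November library was higher than the September one in 3 of 3 numbers (0.098, 0.43 and 0.78), and the February library was lower than the November one in 3 of 3 (−0.44, −0.25 and −1.50). February over September gave −0.34, 0.18 and −0.72. These signs in 3 of 3 numbers were the same in CPM on library totals. Among the 34 families, 20.6% were lower and 11.8% higher in all 3 numbers for November over September, and 23.5% were lower in all 3 for February over November. With the library number as a block, the log2 fold change of November over September was −0.58 for miR162 (95% interval −1.67 to 0.52) and 0.47 for miR168 (−1.05 to 2.0), each with an edgeR adjusted p of 0.91. That of February over November for miR168 was −0.75 (−2.31 to 0.80, edgeR adjusted p = 0.64).

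For miR168 the log2 fold change of November over September was 0.44 (95% interval −1.35 to 2.23, edgeR adjusted p = 0.90). February over November gave −0.77 (−2.58 to 1.03, edgeR adjusted p = 0.76). February over September gave −0.34 (−2.13 to 1.46, edgeR adjusted p = 0.80). With library totals in place of TMM factors the first 2 of these were 0.52 and −0.67 (edgeR adjusted p = 0.84 and 0.82). Without the libraries numbered 3 the 3 values were 0.34, −0.61 and −0.27 for miR168 and −0.52, 0.40 and −0.12 for miR162. Leaving out 1 library turned the sign of February over September for miR168 without September 1, September 2, November 1 or February 2, and that of at least 1 comparison of miR162 without any of these 4, November 3, February 1 or February 3.

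Single names were tested in the same way. Of the 6 distinct rows tested, 0 passed the edgeR threshold in any comparison, against 0% of all 132 distinct rows in each of the 3 comparisons. Unadjusted p-values under 0.05 were found for 0 of the 6 rows in any comparison. The smallest was 0.43, for pab-miR168b between November and February (log2 fold change of −0.93, 95% interval −3.48 to 1.61, edgeR adjusted p = 0.94). DESeq2 also called 0 of these rows, against 5 of all 132 rows for February against September and 0 in the other comparisons. With the library number as a block, 3.79% of all rows were called for February against September and 0 of these 6.

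**Figure D2:**
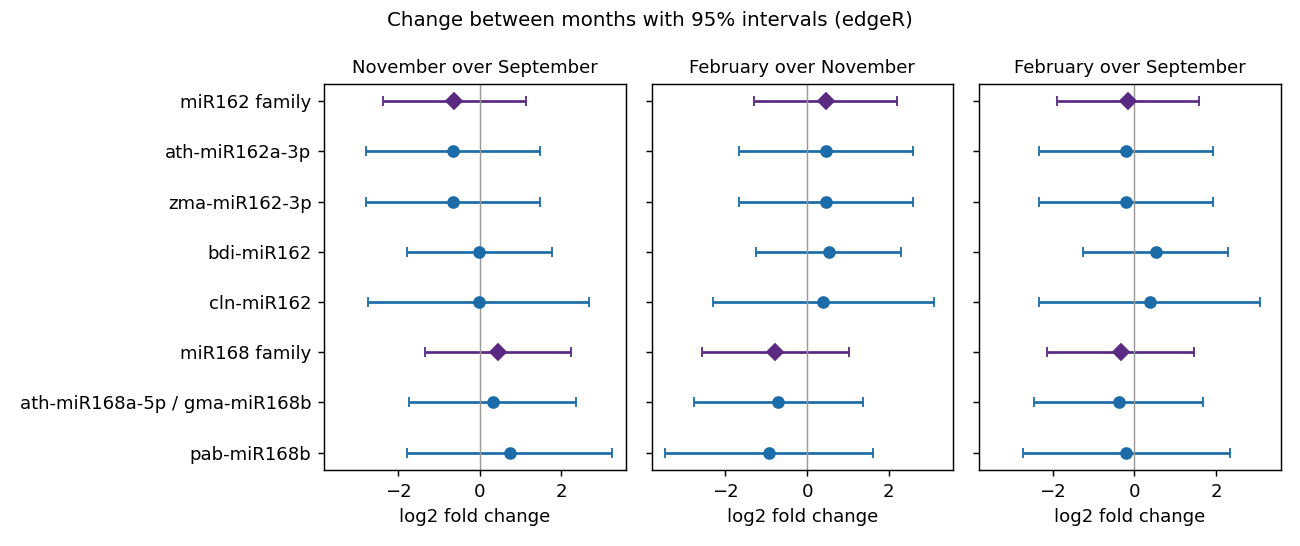
Log2 fold changes of both families (diamonds) and of the 6 distinct rows tested (circles) in the 3 comparisons between months, the later month over the earlier, with 95% intervals from edgeR. Every interval spans 0, and the 2 families point in opposite directions for November over September and for February over November.

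The ratio of miR168 to miR162 within a library needs no library size and sets the AGO1-directed family against the DCL1-directed one. On the log2 scale it was −7.74, −8.05 and −6.24 in November libraries 1, 2 and 3, against −8.49, −9.16 and −7.52 in September. The mean difference was 1.05, and the November library was higher in 3 of 3 numbers (0.75, 1.11 and 1.28). In February it was −8.83, −9.07 and −6.53, lower than in November in 3 of 3 numbers (differences of −1.09, −1.02 and −0.29), with a mean difference of −0.80. The libraries numbered 3 lay above the others in each month, and the months overlapped. An exact permutation test of the 9 libraries over the 3 months gave p = 0.50. Permuting the months only within each number, since same-numbered libraries deviated together, gave an exact p = 0.0833, where 0.0278 is the smallest possible. Between 2 months the exact two-sided permutation p was 0.3 for November against September, 0.5 for February against November and 0.8 for February against September, where 3 libraries against 3 cannot go below 0.1. Adjusted over the 9 such tests of 3 ratios, each was 0.9. For February against September the mean difference was 0.25, and without the libraries numbered 3 it was −0.12.

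**Figure D3:**
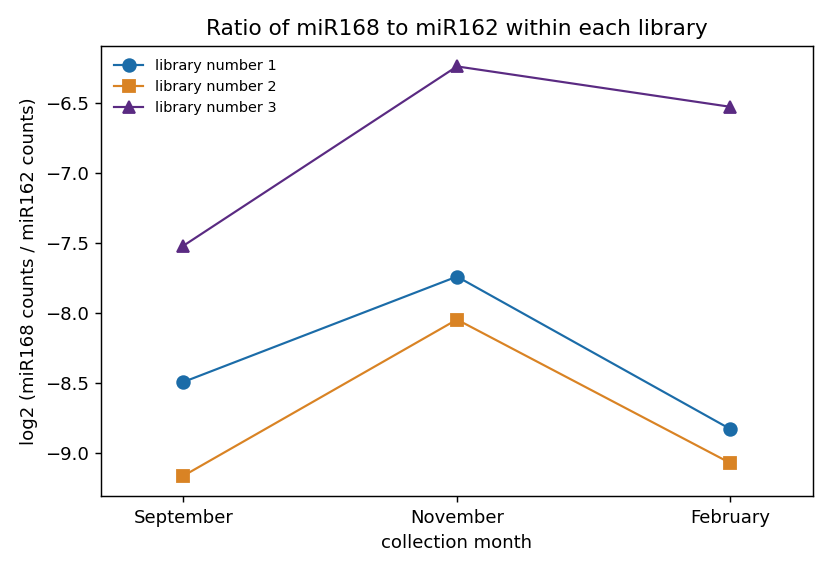
Log2 ratio of miR168 to miR162 counts within each library, by collection month, with lines joining libraries of the same number. In each number the November point is the highest, at −8.05 to −6.24, and the libraries numbered 3 lie above the others in every month.

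Within miR162 the names did not keep a fixed proportion. With ath-miR162a-3p and zma-miR162-3p counted once, ath-miR162a-3p took 89.6% to 94.9% of the family in the 6 libraries numbered 1 and 2, and 37.1% to 75% in the 3 numbered 3. bdi-miR162, the second name of the family, made up most of the rest. Its share in September was 5.14% (95% exact interval 4.72 to 5.58), 4.66% (4.11 to 5.25) and 24.6% (23.6 to 25.7) in libraries 1, 2 and 3. In November it was 4.77% (4.45 to 5.098), 7.21% (6.03 to 8.53) and 38.4% (37.3 to 39.6). In February it was 8.75% (8.25 to 9.27), 9.99% (9.29 to 10.7) and 62.6% (59.5 to 65.7). The libraries numbered 3 were above all others, and February was the highest month within each number.

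The 2 names moved in opposite directions between library numbers. ath-miR162a-3p stood at 2445 to 7051 CPM in the libraries numbered 3 and at 12707 to 23484 CPM in the others. bdi-miR162 stood at 2317 to 4134 CPM in the libraries numbered 3 and at 639 to 2115 CPM in the others. The low share of the whole family in the libraries numbered 3 was found for ath-miR162a-3p and not for bdi-miR162. Minor names of the family also differed by number. cln-miR162 had 7, 9 and 2 counts in the libraries numbered 3 of September, November and February, 0.105% to 0.205% of the family, against 0.331% to 0.639% in the others. osa-miR162b had 17, 21 and 1 counts in the libraries numbered 3, against 0 to 4 in each of the others. February 3 and February 2 each held 1 count, so in counts the difference lay in September and November.

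Across months, the log2 ratio of bdi-miR162 to ath-miR162a-3p was higher in February than in November in 3 of 3 numbers (0.94, 0.51 and 1.43). It was also higher in February than in September in 3 of 3 numbers (0.83, 1.18 and 2.36), with a mean of −1.93 ± 2.33 in February and −3.38 ± 1.54 in September (SD, n = 3 each). An exact permutation test over the 3 months gave p = 0.68, and 0.0556 with months permuted only within a number, where 0.0278 is the smallest possible. Without the libraries numbered 3 the mean differences were 0.72 for February against November and 1.004 for February against September. This ratio was chosen after its values were seen, as 1 of 3 ratios tested. The Benjamini-Hochberg adjusted p over the 3 tests without regard to number was 0.97 for each.

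miR168 was also made up of 2 rows, the one shared by ath-miR168a-5p and gma-miR168b and that of pab-miR168b. pab-miR168b took 3 of 55, 10 of 18 and 24 of 63 counts in September libraries 1, 2 and 3. It took 5 of 154, 5 of 12 and 79 of 149 in November, and 10 of 50, 3 of 24 and 9 of 14 in February. The share of pab-miR168b was therefore 3.25% (95% exact interval 1.06 to 7.41) in November 1 and 53.0% (44.7 to 61.2) in November 3, the 2 deepest libraries of the set. In the libraries numbered 3 it was 38.1% to 64.3%, and in the others 3.25% to 55.6%, so that these ranges overlapped. The highest share outside number 3, in September 2, rested on 18 counts (interval 30.8 to 78.5). The highest of all, 64.3% in February 3, rested on 14 counts (interval 35.1 to 87.2). The log2 ratio of pab-miR168b to ath-miR168a-5p, also chosen after its values were seen, averaged −1.43 ± 2.20 for September, −1.67 ± 2.70 for November and −1.26 ± 1.805 for February (SD, n = 3 each). The exact permutation test over the 3 months gave p = 0.97.

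**Figure D4:**
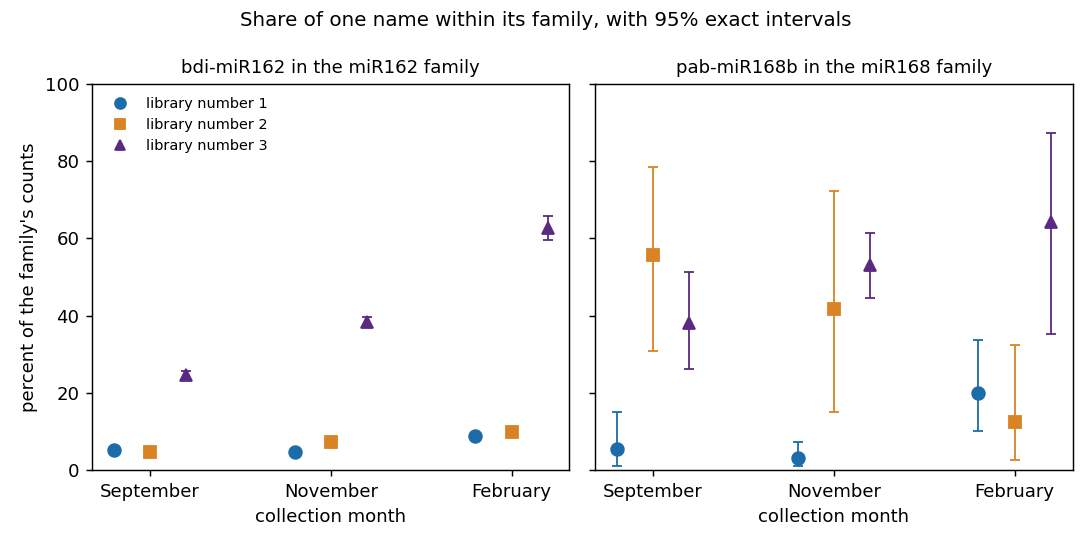
Percent of the counts of the miR162 family listed under bdi-miR162 (left) and of the miR168 family listed under pab-miR168b (right), by month and library number, with 95% exact intervals. bdi-miR162 reaches 24.6% to 62.6% in the libraries numbered 3 and 4.66% to 9.99% in the others, and the intervals of pab-miR168b are wide where the family has few counts.

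The families whose levels most resembled each member family were named by Pearson correlation of log2 TMM-scaled CPM over the 9 libraries, as a description. For miR162 these were miR2950 (r = 0.89), miR482 (0.74) and miR160 (0.64). Without the libraries numbered 3 the value for miR2950 was 0.14 over 6 libraries, and those for miR482 and miR160 were 0.73 and 0.81. For miR168 they were miR159 (r = 0.77), miR390 (0.75) and miR4414 (0.65), and 0.73, 0.83 and 0.80 over the 6 libraries. The correlation of miR162 with miR168 was 0.28 over 9 libraries and 0.44 over 6. All families share the library totals and the library numbers, and both bear on such correlations.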

How the data were processed

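Small RNA of Ginkgo biloba embryos was analysed in 9 libraries, 3 per collection month, grouped by the month in their labels. The table as deposited gives raw read counts per miRNA name and library, with no normalization, per the file headers. Tools listed in the submitters' processing notes, with no role stated, are Bowtie, HTSeq 0.6.1, TopHat2 2.0.12 and CASAVA 1.8. The reference catalogue, the assignment of reads to several names and any use of molecular identifiers are not stated there. The mRNA table was not used here.

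Names of 1 family with identical counts were merged, leaving 292 rows. Family counts are sums over these rows for each miR number. Library totals over the rows were 89394 to 1265268. Tests used edgeR 4.0.16 in R 4.3.3 (TMM factors, quasi-likelihood, 1 coefficient per month, all 9 libraries) on the 34 families and 132 rows that reached 10 counts in 3 or more libraries, with Benjamini-Hochberg adjustment over all of them and a threshold of 0.05. Ratios within a library used 0.5 added to each count, and correlations and differences within numbers log2 TMM-scaled CPM with a prior count of 2. The code was tested on simulated data. DESeq2 1.42.0, other scalings, filters and left-out libraries were alternatives. Merging names that differ by at most 1% was added after seeing the data, as were the ratios between single names.

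Deviations from the month's mean correlated at 0.36 to 0.90 in all 9 pairs of same-numbered libraries, and at −0.85 to 0.80 between other numbers. A correlation over 0.1 for each same-number pair was the criterion for pairing, which these values met. No label states a pairing. All 10 members were to be described, with the 3 families most like each family and the other families of the circuit. The members and lists were chosen with earlier results of these data known.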

Additional observations from a re-analysis of the deposited data

How the results depend on the processing

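None of the family changes, name changes or ratios between months passed the threshold under any alternative run, and what varied was their size and sign. Few features passed at all. No alternative called more than 3 families or 5 rows in a comparison (of 34 and 132, with DESeq2 or the replicate block). For the 2 families the adjusted p was 0.56 to 1 over 11 alternatives for each comparison, and at least 0.55 with 1 library left out. With the replicate block the log2 fold changes of November over September, February over November and February over September were −0.58, 0.14 and −0.44 for miR162 and 0.47, −0.75 and −0.28 for miR168, and the block changed no call of a member. The family signs held in all these alternatives except for February over September of miR162 with near-identical names merged (0.060). The excess of miR162 over miR168 kept its sign in every alternative, with the mean log2 ratio at −8.56 to −7.11. The exact sign-flip p was at most 0.0313. With every library on the same side it was set by the number of libraries alone. Without the libraries numbered 3 the February against September difference in the log2 ratio of miR168 to miR162 turned to −0.12, and that of pab-miR168b to ath-miR168a-5p to −0.48.

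With 1 library left out, the log2 fold change of miR162 ranged from −1.09 to 0.22 for November over September, −0.53 to 1.12 for February over November and −0.66 to 0.38 for February over September. That of miR168 ranged from −0.42 to 0.36 for February over September and kept its sign in the other comparisons. The difference in the log2 ratio of miR168 to miR162 ranged from −0.56 to 0.71 for February against September. That of bdi-miR162 to ath-miR162a-3p ranged from −0.61 to 1.39 for November against September and −0.39 to 2.06 for February against November. That of pab-miR168b to ath-miR168a-5p ranged from −1.48 to 1.30, −1.13 to 1.35 and −1.07 to 1.04 for November against September, February against November and February against September.

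Single names turned sign as follows with 1 library left out. For November over September the ranges were −1.17 to 0.22 for ath-miR162a-3p and zma-miR162-3p, −0.29 to 1.85 for ath-miR168a-5p, −0.41 to 0.33 for bdi-miR162, −0.47 to 0.96 for cln-miR162 and −0.22 to 1.32 for pab-miR168b. For February over November they were −0.62 to 1.15 for ath-miR162a-3p and zma-miR162-3p, −1.62 to 0.33 for ath-miR168a-5p, −0.84 to 0.96 for cln-miR162 and −1.51 to 0.14 for pab-miR168b. For February over September they were −0.76 to 0.35 for ath-miR162a-3p and zma-miR162-3p, −0.58 to 0.85 for ath-miR168a-5p, −0.39 to 1.003 for cln-miR162 and −0.72 to 0.82 for pab-miR168b.

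Other settings turned the following signs, and the cause was not tested. For November over September these were bdi-miR162 with total counts only (0.082), all names counted (0.027) or near-identical names merged (0.034), and cln-miR162 with total counts only (0.14), RLE factors (0.093), DESeq2 (0.092), only the 2 months compared (0.068) or the libraries numbered 3 left out (0.14). For February over November these were ath-miR162a-3p and zma-miR162-3p with no filter on low counts (−0.026 for both), and cln-miR162 with no filter (−0.15) or only the 2 months compared (−0.039). For February over September these were cln-miR162 with no filter (−0.25), and pab-miR168b with total counts only (0.017), the replicate block (0.056), only the 2 months compared (0.012) or near-identical names merged (0.0073). The 12 to 154 counts of miR168 in a library limit what can be said of it.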

Other observations

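Names of 1 family need not follow each other across libraries. bdi-miR162 and ath-miR162a-3p correlated at −0.45 in log2 TMM-scaled CPM over the 9 libraries and at 0.67 over the 6 numbered 1 and 2. cln-miR162, by contrast, correlated with ath-miR162a-3p at 0.88 over 9 libraries and 0.67 over 6. With bdi-miR162 it correlated at −0.60 and 0.73. These values describe libraries that share their numbers and totals. The names most like bdi-miR162 over 9 libraries belonged to other families, ppt-miR166j (r = 0.90), pab-miR1083 (0.89) and ath-miR319c (0.89). Without the libraries numbered 3 these were 0.81, 0.94 and 0.81. Those most like ath-miR162a-3p, beside its near copy zma-miR162-3p, were vvi-miR2950-5p (0.91) and pta-miR159a (0.90). Over the 6 libraries they were 0.27 and 0.69, so the likeness to vvi-miR2950-5p rested on the libraries numbered 3. Those most like ath-miR168a-5p were osa-miR159c (0.88) and ath-miR159c (0.86), and 0.82 and 0.85 over 6 libraries. For pab-miR168b they were ath-miR394a (0.86) and ptc-miR390d-3p (0.84), and 0.77 and 0.85 over 6. Its correlation with ath-miR168a-5p was −0.52 over 9 libraries and −0.77 over 6. These names were chosen with the values in view.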
